A study of Mus musculus with 12 samples.

Results

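Chemokines are small secreted proteins that steer cell migration through receptors coupled to G proteins, and their genes and receptor genes were followed here in the mouse mammary gland. Members were taken from the array annotation by symbol alone: genes named Ccl, Cxcl or Ccr or Cxcr with a number, the single genes Cx3cl1, Xcl1, Cx3cr1 and Ccrl2, and the atypical receptors Ackr. This gave 54 genes, 33 ligands and 21 receptors, of the 18193 genes with an unambiguous symbol, and 86 of the 45037 probe sets that are not controls. The test took in a probe set if 3 or more of the 12 arrays gave it a signal above their own median. That left 46 member probe sets for 33 genes, 22 ligands and 11 receptors, while 21 genes had no probe set that passed.

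All mice were ovariectomized BALB/c females of 10 weeks, either wild type or null for the progesterone receptor. They were given 17β-estradiol (100 ng) under the skin, and 24 h later 17β-estradiol together with progesterone (2.5 ug), which acted for 8 h or for 24 h. The 4 groups were thus wild type at 8 h, null at 8 h, wild type at 24 h and null at 24 h, each with 3 arrays. An array held RNA pooled from 3 mice, and the labels call the pools biological replicates. The labels do not describe the null allele. No group went without progesterone, and the glands taken at 24 h had also had estradiol for longer, so a difference over time cannot be assigned to either hormone. The series title names receptor-dependent gene signatures of short progesterone treatment as its subject.

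Most chemokines fall into CC and CXC families by the spacing of their first cysteines, and receptors carry the family name of their ligands. CXC ligands with a glutamate-leucine-arginine motif draw neutrophils through Cxcr2, CC ligands draw monocytes, eosinophils and lymphocytes, and a homeostatic set places lymphocytes in lymphoid tissue. In the mammary gland, macrophages and eosinophils accompany ductal growth, and Ccl28 draws antibody-secreting cells to the lactating gland. Atypical receptors bind chemokines without the usual G protein signal and can remove them.

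Values are log2 array signals, and fold changes are 2 to the power of their difference. A value of 1 probe set cannot be set against that of another, because probes differ in how strongly they bind. Array medians lay between 5.84 and 5.91, and arrays of 1 group correlated with r from 0.965 to 0.993. Of the tested Pgr probe sets, 1439527_at was 2.08-fold higher in wild type at 8 h (limma adjusted p = 0.012), and 1455772_at was 3.92-fold higher in null glands (adjusted p = 6.0e-05), so Pgr checks the genotype labels only in part. Of 15 mammary epithelial markers on the array, 14 were above the filter, the milk protein gene Csn2 being the exception. In bulk tissue, fewer cells of a type and less RNA per cell cannot be told apart, which holds for every result given here. The comparisons of genotype and of time share their groups, so their values for a gene are not independent of each other.

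Cxcl15 was the member with the largest genotype difference, and it was lower in wild type glands at both times. It encodes a neutrophil-attracting CXC ligand, also known as lungkine, made by epithelia. Both of its probe sets passed the test in both genotype comparisons and in both time comparisons. On chromosome 5 it lies in the order Cxcl5, Ppbp, Pf4, Cxcl3, Cxcl15, Cxcl1, Cxcl2 (RefSeq, assembly GRCm38.p6), so Cxcl1 is its neighbour. At 24 h Cxcl1 was called in the opposite direction by 1 of its 3 probe sets, a call whose limits are given below. The 250 bases before the start site of both genes are shown 5′ to 3′ on the plus strand because these calls at 24 h ran in opposite directions. Capitals mark matches, on either strand, to GGNNTTTCC (the inner letters of an NF-kB site) and to TATAAA. They were read from RefSeq promoter windows of that build, at chr5:90794284-90794533 for Cxcl15 and chr5:90890995-90891244 for Cxcl1.
Cxcl15: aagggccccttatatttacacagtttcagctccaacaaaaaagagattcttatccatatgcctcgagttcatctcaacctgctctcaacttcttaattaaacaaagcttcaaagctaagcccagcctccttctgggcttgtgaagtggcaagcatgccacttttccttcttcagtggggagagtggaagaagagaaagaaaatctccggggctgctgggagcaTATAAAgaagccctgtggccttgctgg
Cxcl1: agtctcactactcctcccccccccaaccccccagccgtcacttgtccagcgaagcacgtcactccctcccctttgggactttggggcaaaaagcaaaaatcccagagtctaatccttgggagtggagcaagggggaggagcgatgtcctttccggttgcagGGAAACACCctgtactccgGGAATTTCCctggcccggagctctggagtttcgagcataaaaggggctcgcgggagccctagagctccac
In Cxcl15, TATAAA began 27 bases before the start site and no NF-kB letters matched. In Cxcl1, NF-kB matches began 89 and 70 bases before the start site, read as GGAAACACC and GGAATTTCC, and did not overlap. The NF-kB letters were present in 5.82% of 32851 RefSeq promoter windows of 300 bases, which reach 50 bases past the start, and in 21.3% of 47 windows of member genes, those of Ackr4, Ccl20, Ccl9, Ccr3, Ccrl2, Cxcl1, Cxcl10, Cxcl2, Cxcl3 and Cxcl9. TATAAA was present in 13.6% of all windows and 27.7% of member windows. Part of the element bound by the progesterone receptor, AGAACA, was in 19.0% of all and 19.1% of member windows, and part of the estrogen response element, GGTCA, in 40.5% and 55.3%. Neither AGAACA nor GGTCA was found in the windows of Cxcl15, Cxcl1 or Cx3cl1. A window was found for 41 of the 54 member genes, and a match describes letters only.

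At 8 h, probe set 1421404_at of Cxcl15 read 8.19, 8.10 and 8.33 in the wild type pools and 10.22, 10.29 and 10.49 in the null pools. At 24 h it read 6.69, 6.39 and 7.29 in wild type and 8.48, 7.81 and 8.31 in null glands. Every null pool lay above every wild type pool of its time, and every 24 h pool lay below every 8 h pool of its genotype. Wild type minus null was -2.13 at 8 h (4.37-fold lower, SE 0.21, n = 3 per group, limma adjusted p = 0.00034) and -1.41 at 24 h (2.66-fold lower, adjusted p = 0.0080). Between the times the signal fell 2.68-fold in wild type (adjusted p = 0.0057) and 4.39-fold in null glands (adjusted p = 0.00059). Wild type glands at 8 h and null glands at 24 h had nearly the same mean, 8.21 ± 0.12 (SD, n = 3) and 8.20 ± 0.35.

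Probe set 1456428_at of the same gene read 6.90, 6.79 and 6.83 in wild type and 8.88, 8.89 and 8.90 in null pools at 8 h. At 24 h the readings were 5.59, 5.74 and 6.32 in wild type and 7.50, 6.51 and 7.31 in null pools. The pools separated in the same way as for 1421404_at. The difference was 4.13-fold at 8 h (SE 0.23, adjusted p = 0.00069) and 2.35-fold at 24 h (adjusted p = 0.027), and the falls were 1.94-fold in wild type (adjusted p = 0.037) and 3.43-fold in null glands (adjusted p = 0.0026). Leaving out any 1 pool kept the calls of 1421404_at. For 1456428_at the genotype call at 24 h did not survive removal of pool 1 of either genotype or of null pool 3 (0.080 to 0.13) or array weights (0.081), nor the fall in wild type that of any pool except wild type 24 h pool 3 (0.081 to 0.13). With only the 24 h groups in the fit, both genotype calls at 24 h were lost (adjusted p = 0.12 for 1421404_at and 0.24 for 1456428_at).

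Some lists of cell type markers also separated the genotypes at 8 h. The plasma cell list averaged 7.36 to 7.80 in wild type and 8.33 to 8.66 in null pools, with Igha and Jchain called lower in wild type of 7 genes tested. The adipocyte list, of white and brown markers, averaged 11.26 to 11.57 and 11.79 to 12.11, with 2 of 10 called lower in wild type. Its median gene differed by only -0.07 (log2, wild type minus null), against 0.01 for all genes tested. Of 14 epithelial genes tested 2 were called, both lower in wild type, and the list median was 0.04 (log2, wild type minus null). Krt8 and Krt18, luminal keratins, had less signal in wild type (1.74-fold and 1.31-fold). The mean of the epithelial list overlapped between the genotypes (9.47 to 9.79 and 9.49 to 9.71). The skeletal muscle list had the largest median genotype difference of the lists, 2.18 at 8 h and 1.79 at 24 h. Of its 10 genes 0 were called at either time. Its mean overlapped at 8 h (10.32 to 11.81 in wild type and 6.45 to 10.62 in null pools) and at 24 h. The part of these cell types in the Cxcl15 result was not tested.

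**Figure D1:**
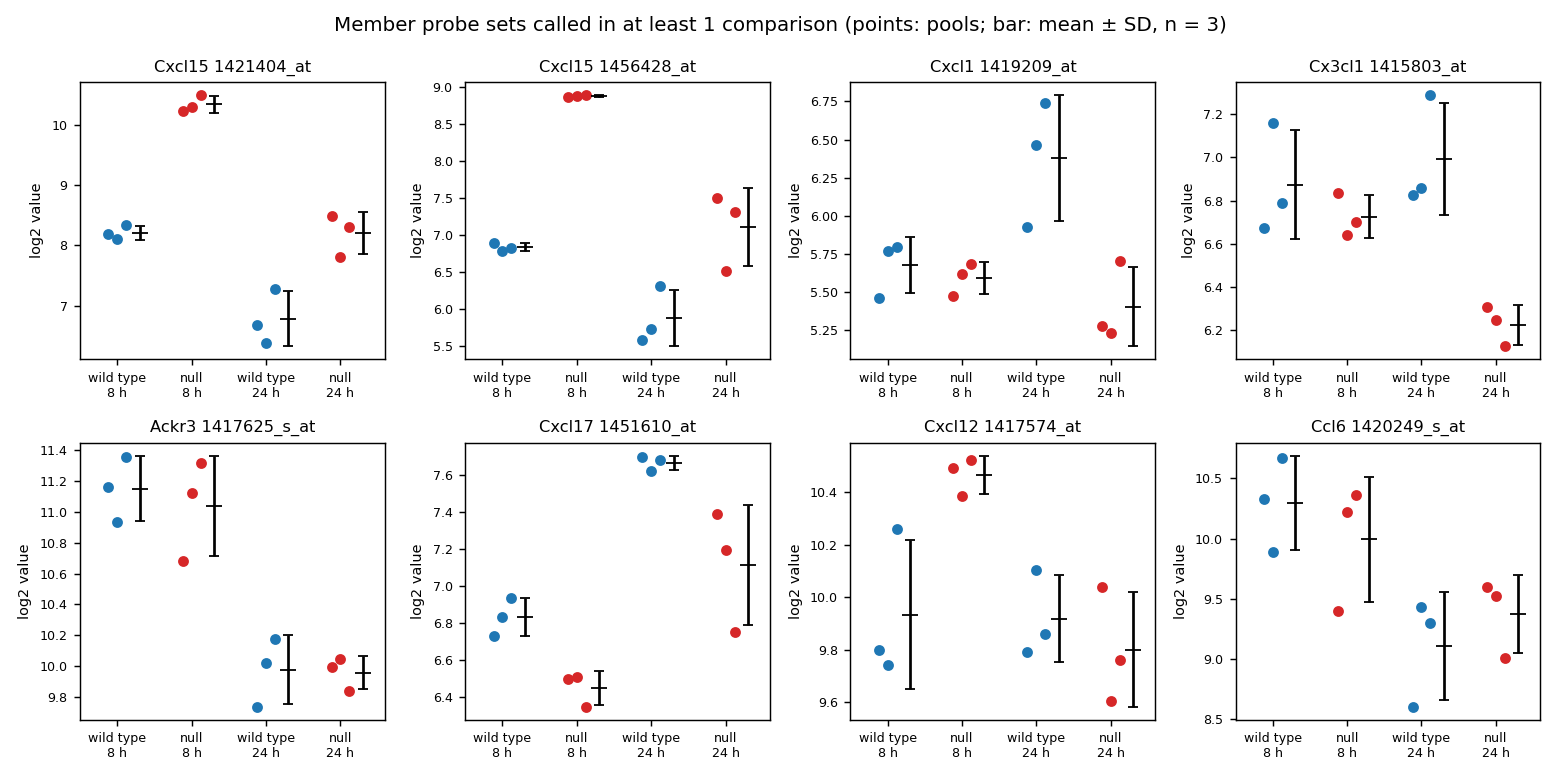
Log2 signal of each pool (points) with mean ± SD (bars, n = 3) in the 4 groups, 1 panel for each member probe set called in any comparison, each panel with its own vertical scale. For both Cxcl15 probe sets every null pool lies above every wild type pool of the same time.

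At 8 h, the Cxcl15 probe sets were the only members called for genotype. These 2 of 46 (4.35%) stood beside 3.07% of all 23709 probe sets tested, and both were lower in wild type, against 1.54% of all. Groups did not overlap for 6 member probe sets (13.0%), against 24.4% of all. The member median was 0.08 (log2, wild type minus null) and that of all probe sets 0.02. By the highest probe set of each gene, 1 of 33 was called, against 3.01% of genes.

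At 24 h, 4 of 46 member probe sets (8.7%) were called for genotype, against 1.11% of all. Both Cxcl15 probe sets were lower in wild type (0.232% of all were called in that direction), and 1 probe set each of Cxcl1 and Cx3cl1 was higher (0.873%). Groups did not overlap for 8 (17.4%), against 15.3% of all (9.74% with wild type higher and 5.53% lower), and the member median was -0.05 (all probe sets 0.02). The share called rests on few genes: counted by the highest probe set of each gene it was 2 of 33, against 1.3% of 12004 genes. With only the 6 arrays of 24 h in the fit, none of the 4 calls held (adjusted p 0.12 to 0.24).

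Cxcl1, a ligand of the neutrophil receptor Cxcr2, was higher in wild type than in null glands at 24 h by 1 of its 3 probe sets. That probe set, 1419209_at, read 5.93, 6.47 and 6.74 in wild type and 5.28, 5.23 and 5.70 in null pools. At 8 h it read 5.46, 5.77 and 5.80 in wild type and 5.48, 5.62 and 5.68 in null pools. The wild type pools of 24 h were the highest of all 12, and the genotypes overlapped at 8 h. The difference was 1.97-fold at 24 h (SE 0.20, n = 3 per group, limma adjusted p = 0.045), with 0.08 (log2) at 8 h (adjusted p = 0.90). Its signal exceeded the array median on 3 arrays only, those of wild type at 24 h, so it entered the test through the group in which it was high (adjusted p = 0.043 with no filter). The call was lost without wild type pool 2 or 3 or null pool 1 or 2 (adjusted p 0.061 to 0.18), after quantile normalization (0.052), after centring (0.057) and with only the 24 h groups in the fit (0.24).

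The other Cxcl1 probe sets carry suffixes that Affymetrix uses where probes can match further transcripts. The called probe sets of Ackr3 and Ccl6, given below, carry such a suffix too. 1457644_s_at read 7.16, 7.73 and 7.37 in wild type and 7.01, 6.82 and 7.09 in null pools at 24 h, without overlap, a difference of 0.45 that did not pass (log2, adjusted p = 0.17). 1441855_x_at differed by 0.08 (adjusted p = 0.79) and was higher at 24 h than at 8 h without overlap in both genotypes, by 0.36 in wild type (adjusted p = 0.055) and 0.33 in null glands (adjusted p = 0.078). The probe sets of Cxcl1 thus disagreed on genotype at 24 h in size, not in sign.

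The remaining neutrophil ligands Cxcl2, Cxcl3 and Cxcl5 and the receptor Cxcr2 lay under the filter on all 12 arrays. Cxcl2 was the closest to Cxcl15 in direction, with 8 h means of 3.22 ± 0.03 (SD, n = 3) for wild type and 3.55 ± 0.05 for null, without overlap, and 24 h means of 3.38 ± 0.27 and 3.62 ± 0.12, with overlap. These signals lie far under the array median and were not tested. Of the neutrophil list 5 of 11 genes were tested, with a median difference of 0.12 (log2) at 8 h and 0.14 at 24 h. S100a8, an abundant neutrophil protein gene, was 2.63-fold higher in wild type at 8 h (adjusted p = 0.0075). Its partner S100a9 differed by 0.14 at 8 h (adjusted p = 0.89) and -0.33 at 24 h (adjusted p = 0.70), and Csf3r, Ltf and Mmp9 did not pass at 8 h either (-0.07, 0.12 and -0.11). The defining genes Mpo, Elane, Ngp, Camp and Mmp8 were under the filter.

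Cx3cl1 encodes fractalkine, a membrane-bound ligand that holds cells bearing Cx3cr1. It was higher in wild type at 24 h by 1 of its 2 tested probe sets. 1415803_at read 6.83, 6.86 and 7.29 in wild type and 6.31, 6.25 and 6.13 in null pools at 24 h, and 6.67, 7.16 and 6.79 against 6.84, 6.64 and 6.70 at 8 h. The null pools of 24 h were the lowest of all 12. The difference was 1.70-fold at 24 h (SE 0.15, n = 3 per group, limma adjusted p = 0.033) and 0.15 (log2) at 8 h (adjusted p = 0.71). The call was lost without any 1 pool but wild type pool 2 (adjusted p 0.056 to 0.12) and with only the 24 h groups in the fit (0.15). The other probe set, 1415804_at, differed by -0.11 (adjusted p = 0.70). Cx3cr1 stayed under the filter on every array. The 250 bases before the Cx3cl1 start site (chr8:94771930-94772179, plus strand, RefSeq, GRCm38.p6) are shown as the third gene with a genotype call, with TATAAA in capitals.
Cx3cl1: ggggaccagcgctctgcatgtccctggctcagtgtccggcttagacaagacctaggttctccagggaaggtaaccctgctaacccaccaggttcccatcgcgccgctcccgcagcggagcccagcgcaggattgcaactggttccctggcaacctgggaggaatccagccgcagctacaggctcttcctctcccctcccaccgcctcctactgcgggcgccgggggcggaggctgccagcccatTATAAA
TATAAA began 6 bases before the annotated start and no NF-kB letters matched.

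At 24 h the mammary epithelial list also differed between the genotypes. Its mean was 9.42 to 9.92 in wild type and 8.92 to 9.17 in null pools, and 4 of 14 genes were higher in wild type: Cldn7 (2.28-fold), Cldn3 (1.99-fold), Cdh1 (1.81-fold) and Trp63 (2.65-fold), which encode junction proteins and a basal cell transcription factor. Wild type pool 2 had the lowest list mean of its group. The part of the epithelial share in the Cxcl15, Cxcl1 and Cx3cl1 results was not tested.

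**Figure D2:**
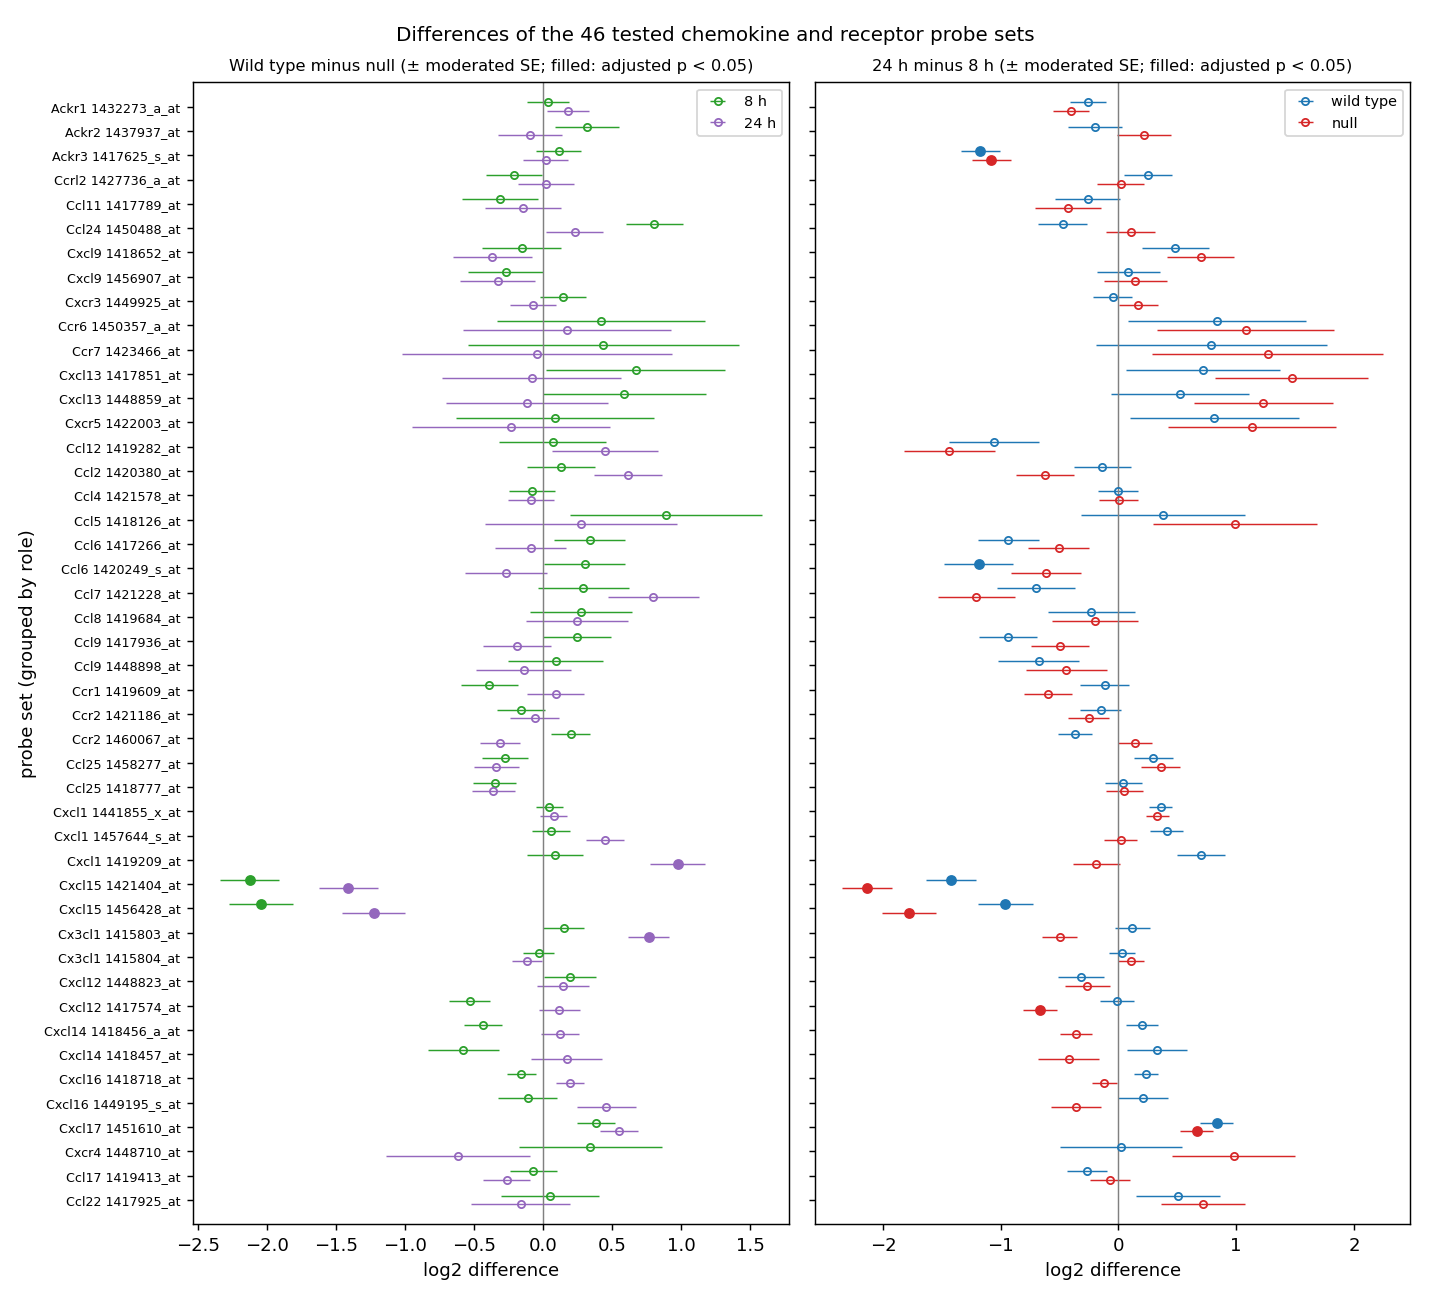
Log2 differences of the 46 tested member probe sets (points, filled where called) with moderated standard errors (bars), grouped by role, for the genotype comparisons (wild type minus null at 8 h and 24 h) and the time comparisons (24 h minus 8 h in each genotype). Cxcl15 1421404_at lies farthest to the negative side in all 4 comparisons.

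Limma called no change of the genotype difference between the times for any member probe set. The count was 0 of 46, and 0.143% of all probe sets were called. An unadjusted limma p under 0.05 was found for 8 of the 46 (17.4%), against 5.67% of all probe sets. Both Cxcl15 probe sets were among them, and by the highest probe set of each gene it was 4 of 33. The like shares for genotype were 17.4% against 15.6% at 8 h and 19.6% against 13.7% at 24 h. Over time they were 30.4% against 21.5% in wild type and 32.6% against 21.1% in null glands. For Cxcl15 the difference moved by 0.71 (log2, adjusted p = 0.83) by 1421404_at and by 0.82 by 1456428_at, for Cxcl1 1419209_at by 0.89 (adjusted p = 0.50) and for Cx3cl1 1415803_at by 0.62 (adjusted p = 0.56). A call at 24 h alone is therefore not shown to be specific to that time. The member median was -0.04, that of all probe sets 0.01.

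Over time, 5 of 46 member probe sets (10.9%) were called in wild type, against 5.22% of all, and 5 (10.9%) in null glands, against 4.4% of all. In each genotype 1 was higher at 24 h (1.53% of all in wild type, 0.814% in null glands) and 4 were lower (3.69% and 3.59%). Groups did not overlap for 12 member probe sets in wild type (26.1%, against 25.9% of all) and 13 in null glands (28.3%, against 26%). By the highest probe set of each gene the calls were 3 of 33 in each genotype, against 5.28% and 4.57% of genes: Cxcl15, Ackr3 and Cxcl17. Member medians were 0.01 in wild type and -0.10 in null glands (all probe sets -0.02 and -0.03).

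Ackr3 fell in both genotypes. It encodes an atypical receptor, formerly Cxcr7, that takes up Cxcl12. Probe set 1417625_s_at read 11.16, 10.93 and 11.35 in wild type and 10.68, 11.12 and 11.31 in null pools at 8 h. At 24 h it read 9.73, 10.02 and 10.18 in wild type and 10.00, 10.04 and 9.84 in null pools. All 6 pools of 24 h lay below all 6 of 8 h, and the genotypes overlapped at each time. The fall was 2.26-fold in wild type (SE 0.17, n = 3 per group, limma adjusted p = 0.0041) and 2.11-fold in null glands (adjusted p = 0.0065), kept without any 1 pool. Wild type minus null was 0.11 at 8 h (adjusted p = 0.82) and 0.02 at 24 h (adjusted p = 0.98).

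Endothelial genes, of which some vessels also carry Ackr3, moved the same way in part. Of 11 tested, Tie1 and Lyve1 fell in wild type and Pecam1, Kdr and Tie1 in null glands, and the list mean ranged from 9.08 to 9.30 in wild type at 8 h, 8.83 to 9.03 in wild type at 24 h, 9.10 to 9.26 in null at 8 h and 8.74 to 8.88 in null at 24 h. Tie1 fell 1.26-fold in wild type and 1.62-fold in null glands. Pecam1 differed 1.22-fold in wild type (adjusted p = 0.051) and fell 1.42-fold in null glands. Lyve1, which lymphatic endothelium and some macrophages carry, fell 2.89-fold in wild type (adjusted p = 0.017) and lay 2.15-fold lower at 24 h in null glands without passing (adjusted p = 0.059), both larger than the falls of Ackr3. The part of vessels in the Ackr3 result was not tested. The other atypical receptors did not pass: Ackr1, the Duffy antigen of venules, differed over time by -0.26 in wild type (adjusted p = 0.36) and -0.40 in null glands (adjusted p = 0.16), Ackr2 by -0.20 and 0.22, and Ccrl2 by 0.25 and 0.02.

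Cxcl17, a mucosal ligand for myeloid cells, rose in both genotypes. Probe set 1451610_at read 6.73, 6.83 and 6.94 in wild type and 6.50, 6.51 and 6.34 in null pools at 8 h, then 7.69, 7.62 and 7.68 in wild type and 7.39, 7.20 and 6.75 in null pools at 24 h. Each group was separate from its counterpart in time and in genotype. The rise was 1.78-fold in wild type (SE 0.14, n = 3 per group, limma adjusted p = 0.0087) and 1.58-fold in null glands (adjusted p = 0.023). Wild type lay higher by 0.38 (log2) at 8 h (adjusted p = 0.19) and 0.55 at 24 h (adjusted p = 0.092), neither passing the test. Both passed with array weights (0.027 and 0.049), and that at 24 h without null pool 1 (0.035). In null glands the call was lost without 8 h pool 2 or 3 or 24 h pool 2 (adjusted p 0.063 to 0.098), and with the fit limited to the groups compared, without (0.097) or with the replicate number as a block (0.054).

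Cxcl12, made by stromal cells and the ligand of Cxcr4, fell in null glands by 1 of its 2 tested probe sets. 1417574_at read 10.49, 10.38 and 10.52 in null pools at 8 h and 10.04, 9.60 and 9.76 at 24 h. In wild type it read 9.80, 9.74 and 10.26 at 8 h and 9.79, 10.10 and 9.86 at 24 h. The null pools of 8 h were the highest of all 12. The fall in null glands was 1.59-fold (SE 0.15, n = 3 per group, limma adjusted p = 0.030), and was lost without any 1 pool but null 24 h pool 1 (adjusted p 0.063 to 0.12). The difference in wild type was -0.01 (adjusted p = 0.97). At 8 h wild type minus null was -0.53 without overlap (adjusted p = 0.082), and passed without wild type pool 3 (0.022) and with array weights (0.0032).

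The probe set of Cxcl12 with the highest mean, 1448823_at, did not pass and differed in sign at 8 h. It read 10.63, 10.48 and 10.92 in wild type and 10.13, 10.49 and 10.82 in null pools at 8 h, and 10.20, 10.33 and 10.54 against 9.90, 10.24 and 10.51 at 24 h. Its groups overlapped in every comparison, with 0.19 for genotype at 8 h (adjusted p = 0.70) and -0.27 over time in null glands (adjusted p = 0.46). Cxcl14, another stromal and epithelial ligand, read 7.23, 7.41 and 7.77 in wild type and 7.88, 7.97 and 7.87 in null pools at 8 h by 1418456_a_at. These groups did not overlap, and the difference of -0.44 did not pass (SE 0.14, adjusted p = 0.13). It passed without wild type pool 3 (0.035) and with array weights (0.0053). The other Cxcl14 probe set, 1418457_at, overlapped between the genotypes at 8 h (-0.58, adjusted p = 0.30, and 0.018 with array weights). Cxcl16, which exists as a membrane form and binds Cxcr6, differed by 0.19 at 24 h by 1418718_at (adjusted p = 0.45).

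**Figure D3:**
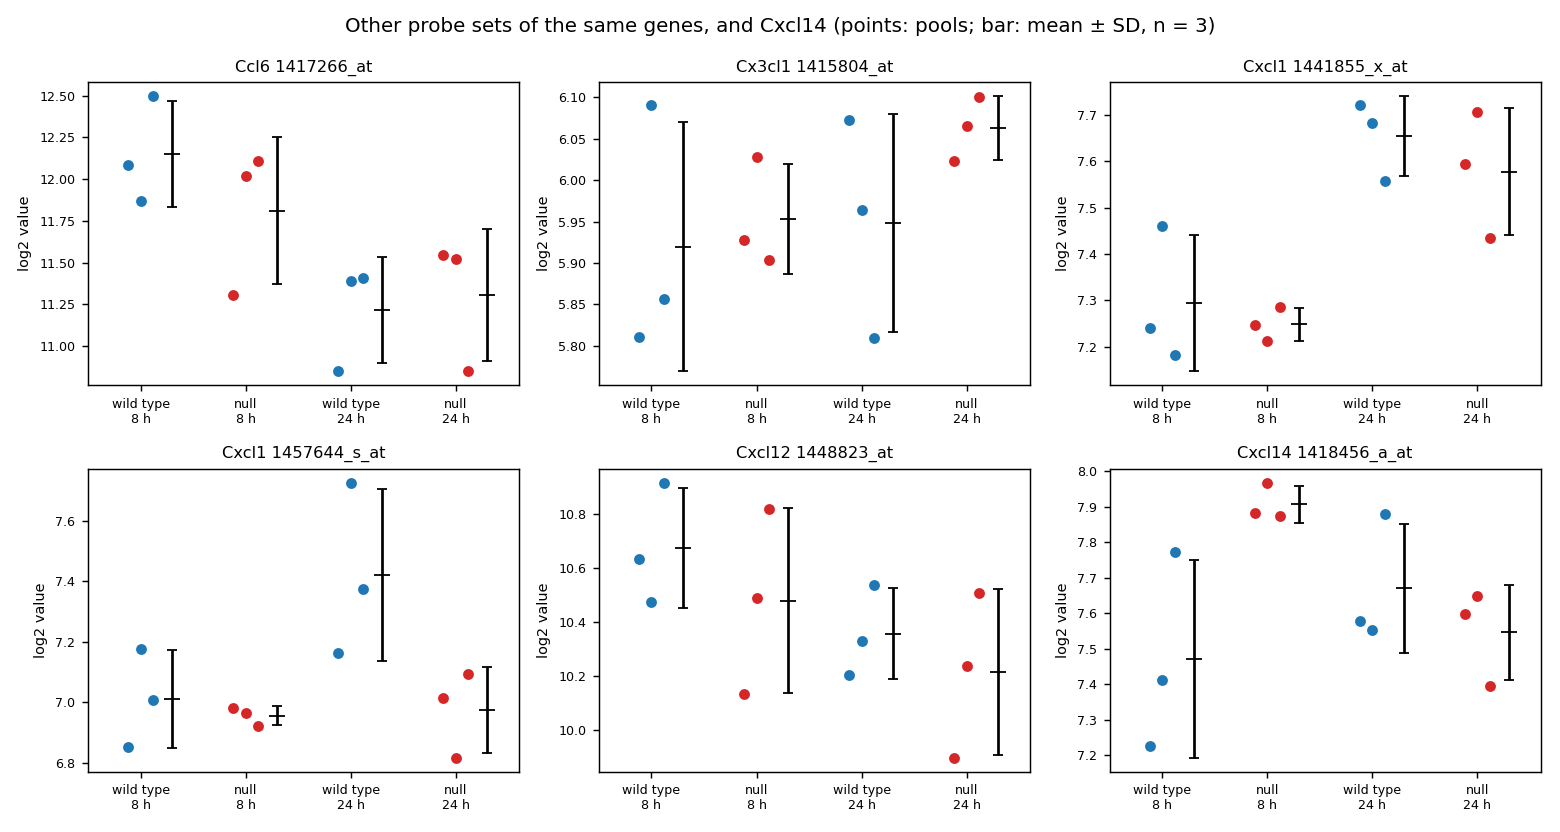
Log2 signal of each pool (points) with mean ± SD (bars, n = 3) for further probe sets of Cxcl1, Cx3cl1, Cxcl12 and Ccl6 and for Cxcl14, each panel with its own vertical scale. The second Cx3cl1 probe set does not show the 24 h genotype difference of 1415803_at, and Cxcl14 separates the genotypes at 8 h.

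The CC ligands of monocytes and macrophages lay lower at 24 h than at 8 h in several cases. Of 13 probe sets of these ligands and their receptors, 1 was called over time in wild type, against 5.22% of all probe sets. In null glands 0 were called, against 4.4% of all. Ccl6, a myeloid ligand, had 1420249_s_at at 10.33, 9.89 and 10.67 in wild type at 8 h and 8.60, 9.43 and 9.30 at 24 h. In null pools it read 9.40, 10.22 and 10.36, then 9.60, 9.53 and 9.01. The wild type times were separate and the null times overlapped. It fell 2.28-fold in wild type (SE 0.30, n = 3 per group, limma adjusted p = 0.042), a call that removal of each single pool undid (0.053 to 0.13), as did testing with no filter (0.051) or fitting only the wild type arrays (0.065). In null glands the difference was -0.62 (adjusted p = 0.26).

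The other Ccl6 probe set, 1417266_at, read 12.09, 11.87 and 12.50 in wild type and 11.31, 12.02 and 12.11 in null pools at 8 h. At 24 h it read 10.85, 11.39 and 11.41 in wild type and 11.54, 11.52 and 10.85 in null pools. It differed over time by -0.93 in wild type (1.91-fold, adjusted p = 0.059) and -0.51 in null glands (adjusted p = 0.29). Ccl9, a related myeloid ligand, behaved alike by 1417936_at: 10.92, 10.53 and 11.15 in wild type at 8 h and 9.53, 10.24 and 10.01 at 24 h, a difference of -0.94 just outside the threshold (adjusted p = 0.051), which passed after centring (0.045) and with a stricter filter (0.049). Its null pools read 10.14, 10.79 and 10.93, then 10.38, 10.19 and 9.79, with -0.50 (adjusted p = 0.27).

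The Ccr2 ligands Ccl12, Ccl7 and Ccl2 lay lower at 24 h in null glands without passing. Ccl12 read 7.47, 7.33 and 8.60 in null pools at 8 h and 6.42, 5.92 and 6.75 at 24 h, and 8.21, 7.01 and 8.38, then 6.65, 6.92 and 6.86 in wild type. The times were separate in both genotypes, with -1.44 in null glands (2.71-fold, SE 0.38, adjusted p = 0.058) and -1.06 in wild type (adjusted p = 0.14). With the replicate number as a block it passed in null glands (adjusted p = 0.018, or 0.027 on the null arrays alone), and with array weights (0.0085). Ccl7 read 5.77, 6.09 and 6.90 in null pools at 8 h and 5.44, 4.68 and 5.02 at 24 h (-1.21, adjusted p = 0.061, and 0.0033 with array weights). At 24 h Ccl7 lay 1.74-fold higher in wild type, with wild type pools at 5.39, 6.30 and 5.85 (SE 0.33, adjusted p = 0.31). Ccl2 read 6.18, 6.85 and 6.50 in wild type and 5.96, 5.49 and 6.25 in null pools at 24 h (1.53-fold, SE 0.24, adjusted p = 0.29). For both ligands the genotypes overlapped at 24 h.

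Ccl8 had a high signal in all groups and showed no call. It read 10.84, 10.54 and 11.75 in wild type and 10.14, 11.11 and 11.05 in null pools at 8 h, and 10.70, 10.63 and 11.10 against 11.08, 9.87 and 10.75 at 24 h, overlapping throughout (time -0.23 in wild type, adjusted p = 0.76). The receptor Ccr1 read 7.24, 6.91 and 7.37 in wild type and 7.22, 7.85 and 7.61 in null pools at 8 h (-0.39, SE 0.21, adjusted p = 0.40, and 0.024 with array weights). Ccr2, the receptor of inflammatory monocytes, differed by -0.16 at 8 h (adjusted p = 0.73) and -0.06 at 24 h (adjusted p = 0.93) by 1421186_at. Its probe set 1460067_at separated the genotypes at 24 h by -0.31 without passing (adjusted p = 0.37).

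Macrophage markers followed some of these genes from pool to pool. The mean of 15 markers was 9.74, 9.54 and 10.10 in wild type and 9.17, 9.78 and 9.84 in null pools at 8 h. At 24 h it was 9.05, 9.45 and 9.53 in wild type and 9.34, 9.45 and 9.11 in null pools. Its lowest pool was also the lowest in all 4 groups for 6 member probe sets, both of Ccl6, both of Ccl9, Ccr1 and Ackr3, against 3.41% of all probe sets. Over time the median marker differed by -0.48 in wild type and -0.22 in null glands, and 2 markers fell in each genotype: Lyve1 (2.89-fold) and Msr1 (1.76-fold) in wild type, Cd14 (1.51-fold) and Msr1 (-0.58, log2) in null glands. Of the 46 member probe sets tested, only that of Ackr3 had the full pool order of the list in all 4 groups (0.392% of all). Lyve1 is in both the macrophage and the endothelial list. The part of macrophage number in the results of Ccl6, Ccl9 and Ackr3 was not tested.

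Of the eosinophil ligands, Ccl24 (eotaxin-2) lay 1.75-fold higher in wild type at 8 h but did not pass (SE 0.21, n = 3 per group, limma adjusted p = 0.064). It read 8.83, 8.69 and 9.22 in wild type and 7.64, 8.35 and 8.33 in null pools, without overlap. At 24 h it read 8.11, 8.47 and 8.75 against 8.18, 8.21 and 8.26, with overlap (0.23, adjusted p = 0.69). It passed at 8 h with the replicate number as a block (adjusted p = 0.019) and with array weights (0.024). Same-numbered pools of the genotypes did not deviate together at 8 h (r 0.13, -0.03 and -0.02). Ccl11 (eotaxin-1) differed by -0.31 at 8 h (adjusted p = 0.66) and -0.15 at 24 h (adjusted p = 0.88). Their receptor Ccr3 was under the filter, as were the eosinophil genes Siglecf, Epx, Prg2 and Il5ra.

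The interferon-induced ligand Cxcl9, which draws T cells through Cxcr3, was not called. It read 8.43, 8.95 and 8.60 in wild type and 8.92, 8.58 and 9.58 in null pools at 24 h (-0.37, SE 0.29, adjusted p = 0.63). At 8 h the readings were 8.03, 7.84 and 8.66 against 7.97, 8.76 and 8.26, and the genotypes overlapped at both times. Cxcl10 and Cxcl11 were under the filter, Cxcr3 differed by 0.15 at 8 h (adjusted p = 0.75), and limma called 0 of 14 interferon-induced genes in any comparison.

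The lymphoid receptors and ligands varied more between pools of a group than between groups. The B cell follicle ligand Cxcl13 and its receptor Cxcr5, the lymph node homing receptor Ccr7, Ccr6 of B and memory T cells, the T cell ligand Ccl5 and Cxcr4 are the members concerned. Ccr7 read 6.77, 6.48 and 4.32 in wild type and 4.33, 5.95 and 5.99 in null pools at 8 h. At 24 h it read 7.22, 5.28 and 7.44 in wild type and 4.45, 7.23 and 8.39 in null pools. The low pools were wild type 8 h pool 3, null 8 h pool 1, wild type 24 h pool 2 and null 24 h pool 1. Its range within null glands at 24 h was 3.95 (log2).

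The same 4 pools were the lowest of their groups for the others. Ccr6 read 7.06, 6.92 and 5.40 in wild type and 5.12, 6.33 and 6.67 in null pools at 8 h, and 7.57, 6.49 and 7.83 against 5.21, 7.76 and 8.40 at 24 h. Cxcr5 read 5.12, 5.0 and 3.89 in wild type and 4.17, 4.58 and 5.0 in null pools at 8 h, and 5.78, 4.65 and 6.02 against 3.81, 6.02 and 7.32 at 24 h. Cxcl13 by 1417851_at read 9.61, 9.25 and 8.49 against 7.24, 8.74 and 9.35 at 8 h, and 10.11, 8.99 and 10.41 against 8.49, 10.54 and 10.72 at 24 h. In each gene the groups overlapped in every comparison. Ccl5 read 9.44, 9.37 and 8.52 against 7.39, 8.62 and 8.65 at 8 h, and 9.82, 8.32 and 10.31 against 7.48, 9.85 and 10.30 at 24 h. Cxcr4 read 7.08, 7.04 and 6.20 against 5.88, 6.71 and 6.70 at 8 h, and 7.01, 6.06 and 7.30 against 6.14, 7.62 and 8.47 at 24 h. These genes also overlapped between groups throughout.

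None of these genes was called. The differences at 8 h were 0.89 for Ccl5 (1.85-fold, SE 0.70, n = 3 per group, limma adjusted p = 0.61) and 0.67 for Cxcl13 (adjusted p = 0.70), and Cxcr4 differed by -0.62 at 24 h (adjusted p = 0.66). Over time Ccr6 differed by 0.84 in wild type (adjusted p = 0.57), Ccr7 by 1.27 in null glands (2.41-fold, SE 0.98, adjusted p = 0.50) and Cxcl13 by 1.47 in null glands (2.78-fold, SE 0.65, adjusted p = 0.22). With the replicate number as a block on the null arrays alone, Cxcl13 passed (adjusted p = 0.014, and 0.016 for 1448859_at), as 1417851_at did with array weights (0.031).

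B and T cell markers had the same pool order. The mean of 8 B cell markers was 7.54, 7.42 and 5.78 in wild type and 5.57, 6.94 and 7.32 in null pools at 8 h, and 8.12, 6.85 and 8.58 against 5.79, 8.25 and 9.22 at 24 h. The mean of 13 T and NK cell markers ran from 5.97 to 6.92 in wild type and 5.87 to 6.73 in null pools at 8 h, and from 6.33 to 7.62 and 6.04 to 8.22 at 24 h. Limma called 0 genes of either list in any comparison. Ccr7, Ccr6, Cxcr5, Ccl5 and both Cxcl13 probe sets followed the B cell order in all 4 groups, 6 member probe sets against 1.42% of all, and with Cxcr4 and the dendritic cell ligand Ccl22 8 shared its lowest pool (4.06% of all). A list of lymph node stroma and high endothelium genes had its lowest mean in the same 4 pools, at 8.32 and 7.24 in wild type and null glands at 8 h and 8.89 and 7.44 at 24 h, with ranges within groups from 0.88 to 1.80. Of this list 6 of 10 genes were tested, Cxcl13 itself among them, and Madcam1, Chst4 and Fut7 were under the filter. Its median genotype difference was 0.84 at 8 h, with Pdpn called (2.02-fold higher in wild type, adjusted p = 0.0032), and 0.47 at 24 h, with Tnfsf11 called (9.20-fold, adjusted p = 0.011), a gene that mammary epithelium also expresses. The part of lymphocyte or lymph node content in these values was not tested.

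The residual SD of member probe sets, the spread of pools around their group means, had a median of 0.301, against 0.144 for all, and exceeded 0.5 for 10 of 46 (21.7%), against 2.86%. The 10 were the 8 with the lowest pool of the B cell list and those of Ccl12 and Ccl8. Over the other 38 member probe sets the median was 0.271.

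**Figure D4:**
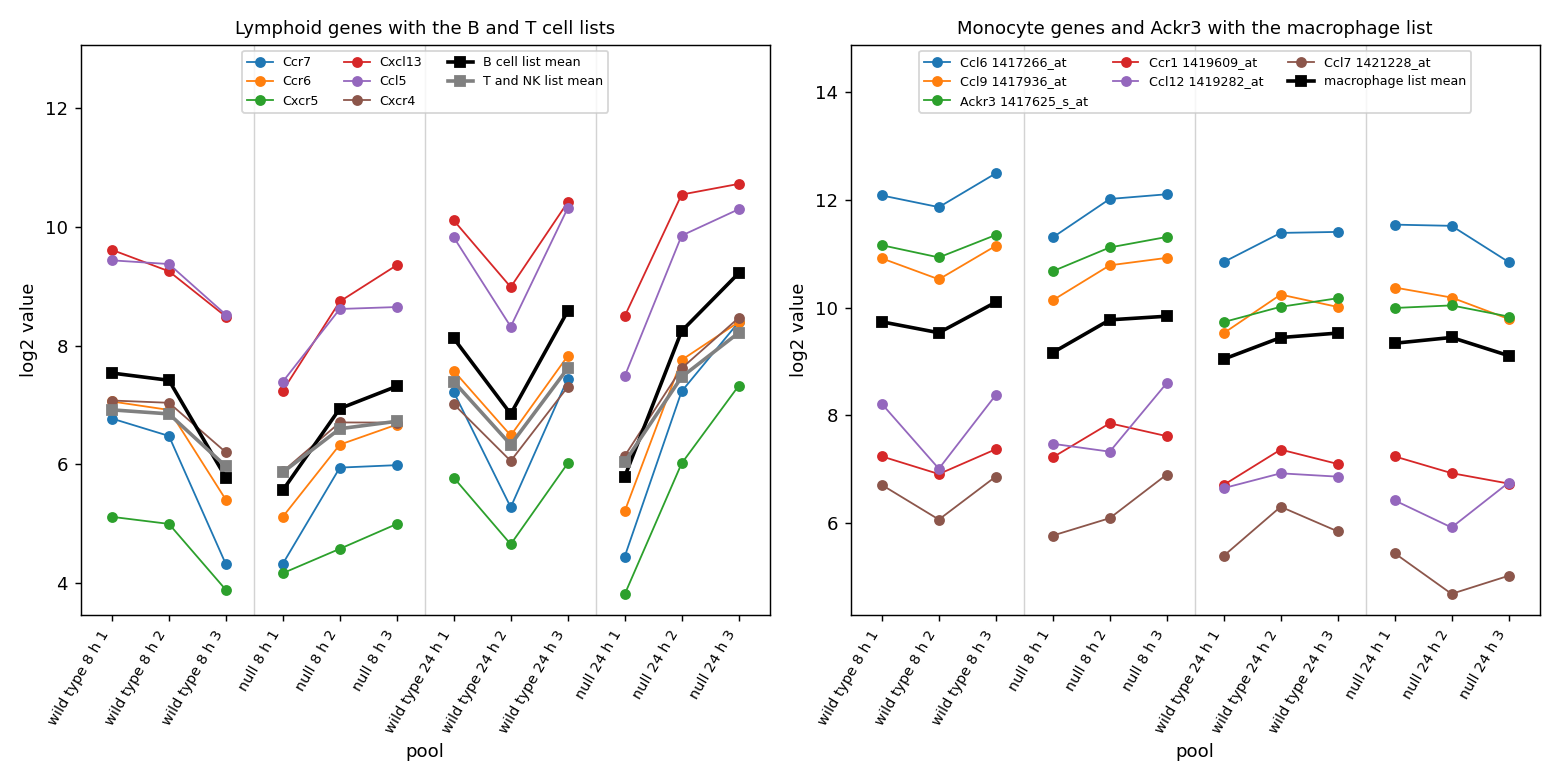
Log2 signal in each of the 12 pools. Left, lymphoid members with the mean of the B cell and the T and NK cell marker lists; right, monocyte members and Ackr3 with the mean of the macrophage list. The lymphoid genes dip in the same pool of each group as both lists.

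Mucosal and skin homing members were mostly under the filter. Ccl28, Ccl27a, Ccr9 and Ccr10 had no tested probe set, with Ccl28 1450217_at at a mean of 5.24 over the 12 arrays. Ccl25, the ligand of Ccr9, differed by -0.35 at 8 h (adjusted p = 0.31) and -0.36 at 24 h (adjusted p = 0.34) by 1418777_at, and by -0.28 and -0.34 by 1458277_at, none passing. Of the ligands of Ccr4, Ccl17 differed by -0.07 at 8 h (adjusted p = 0.90) and -0.26 at 24 h (adjusted p = 0.55), and Ccl22 by 0.05 and -0.16. Ccl4, an inflammatory CC ligand, differed by -0.08 at 8 h (adjusted p = 0.88) and -0.09 at 24 h.

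The 21 genes without a tested probe set were Ackr4, Ccl1, Ccl20, Ccl27a, Ccl28, Ccl3, Ccr10, Ccr1l1, Ccr3, Ccr4, Ccr8, Ccr9, Cx3cr1, Cxcl10, Cxcl11, Cxcl2, Cxcl3, Cxcl5, Cxcr2, Cxcr6 and Xcl1. Of their kind nearest the filter, Ccr9 1427419_x_at was above the median on 2 arrays and Cxcr6 1425832_a_at on 1, while Cxcr5, Ccl4 and Cxcl1 1419209_at passed with 3. Of the 12 genes with several tested probe sets, these had the same sign for genotype in 9 at 8 h and 11 at 24 h, and over time in 12 in wild type and 9 in null glands.

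The counts of the lists below stand beside the shares of all genes called. These were 3.01% for genotype at 8 h and 1.3% at 24 h, and over time 5.28% in wild type and 4.57% in null glands. Of 25 signalling genes tested (of 27 on the array), Rgs2, a regulator that shortens G protein signals, was higher in wild type at 8 h (1.84-fold, SE 0.17, n = 3 per group, limma adjusted p = 0.017) and at 24 h (2.21-fold, adjusted p = 0.0077), and 0 were called over time. Of 16 genes of the NF-kB system, Tnfaip2 was higher in wild type at 24 h (2.12-fold, adjusted p = 0.018), and Tnip1, which restrains the pathway, rose over time in both genotypes (1.32-fold and 1.31-fold). Of 20 cytokine and receptor genes 8 were tested, and Tnf, Il1a, Il1b, Il6 and Ifng were under the filter. Il18 was higher in wild type at 24 h (1.40-fold, adjusted p = 0.049) and rose in wild type (1.39-fold). Il1r1, the interleukin-1 receptor, fell in wild type (-0.52, log2) and null glands (-0.68). Il33 (1.90-fold) and Csf1 (1.59-fold), a macrophage growth factor, fell in null glands. In wild type both also lay lower at 24 h without passing, Il33 by 1.48-fold (adjusted p = 0.097) and Csf1 by 1.48-fold (adjusted p = 0.062). Of the related genes that the symbols do not cover, Pf4, Cmklr1, Rarres2 and Dpp4 were tested and 0 were called in any comparison. Pf4, which lies between Ppbp and Cxcl3, differed by 0.29 at 8 h (adjusted p = 0.49) and 0.23 at 24 h (adjusted p = 0.64).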

How the data were processed

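The data were 12 Affymetrix arrays of mammary gland RNA, extracted with a Qiagen kit for fatty tissue and hybridized as biotin-labelled cRNA, per the labels. The authors' deposited values were taken as log2 from their range, normalized between arrays as judged from nearly equal percentiles. MAS5 appears in the submitters' processing notes without a role or version, and since that method yields linear signals, how the log2 values were made is not given in the sources used here. Leaving out controls, 34945 of 45037 probe sets had 1 gene symbol in the platform annotation, 932 several and 9160 none. Symbols were looked up in a RefSeq table (GRCm38.p6), which changed 0. Of the probe sets with several symbols, 4 with a chemokine among them were left out.

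A limma fit (3.58.1, R 4.3.3; lmFit, trended eBayes) covered the 4 groups and 12 arrays, leaving 8 residual degrees of freedom. It took the 23709 probe sets that exceeded the array median on 3 or more arrays. A call is a Benjamini-Hochberg adjusted p below 0.05 over these, and SE is the moderated standard error (log2). The fit was tested on simulated data. Depth has no meaning for arrays, and their number limits the precision. The members and gene lists were chosen with earlier results of these data known. Full values are given for members called, for the largest differences of each comparison (by the probe set with the highest mean of a gene) and for the 5 members with the highest mean. Called list genes were named up to 4 per list, and Cxcl2, genes just outside a threshold and further uncalled genes were named after their values were seen. Same-numbered null pools of 8 h and 24 h deviated together (r 0.52, 0.26 and 0.38). In the other comparisons r was under 0.1 for at least 1 same-numbered pair. The labels do not say what a number marks, so whether the pools are paired is not known. The main fit used no replicate block, and fits with a block were run as alternatives. Alternatives covered the filter, normalization, centring, a floor, the prior, the arrays fitted, a replicate block, array weights, 1 probe set per gene and leaving out each pool. Figures were drawn with matplotlib 3.10.9.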

Additional observations from a re-analysis of the deposited data

How the results depend on the processing

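No value given for a member reversed its sign in a called result under any alternative run. With array weights the member probe sets called, of 46 tested, rose from 2 to 9 for genotype at 8 h. Over time they rose from 5 to 8 in wild type and from 5 to 20 in null glands. Over all 23709 probe sets tested the calls rose from 729 to 4017 at 8 h. Over time in null glands they rose from 1044 to 5775. A gain of calls with array weights, here or above, was thus not particular to the members. With only the groups compared in the fit, the count for genotype at 24 h fell from 4 to 0 (71 over all probe sets). With 1 probe set per gene the counts were 1 for genotype at 8 h, 2 at 24 h, 3 over time in wild type and 3 in null glands. By construction Cxcl15 then counted once. The called probe sets of Cxcl1, Ccl6 and Cxcl12 gave way to others of higher mean, which were not called. Leaving out 1 pool gave 2 to 4 at 8 h, 2 to 3 at 24 h, 0 to 0 for the change of the genotype difference, 3 to 4 over time in wild type and 3 to 7 in null glands. With the replicate block the counts were 3, 4, 0, 8 and 6 in the same order, and 7 on the null arrays alone, an alternative chosen after seeing the data. The block added Ccl12 and 2 Cxcl1 probe sets over time in wild type, where same-numbered pools deviated together only for pool 1 (r 0.45, -0.01 and 0.02). Apart from these, Ccl24, Ccl12 and Cxcl13 in null glands, and Cxcl17 there, it changed no call named in the text. The cause of these changes was not tested, except where stated.

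The small number of arrays and the low signal limit the family: 40 of 86 member probe sets lay under the filter, and a floor at 4.22 (log2) left the counts of calls at 2, 4, 0, 5 and 5.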
